A study of Rattus norvegicus with 21 samples.

Results

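Livers of 3 male Wistar rats injected every week with diethylnitrosamine (DEN) at 50 mg/kg were compared with livers of 3 male Wistar rats injected with phosphate-buffered saline (PBS), both at week 12. These are 6 of the 21 arrays in the study, which also holds a 100 mg/kg group, week 18 groups and groups given erlotinib. All 19339 features that could be tested were described, 12112 of them genes with a symbol and 7227 single probes with none. The labels class the DEN rats as having cirrhosis and the PBS rats as controls, state a washout of 1 week before killing, and give the material as frozen liver without tumour. The labels place the arrays at week 12 and the killings at weeks 9, 13 and 19. Injections were given into the peritoneum, and the age of the rats is not stated. The labels name the PBS rats PBS_7, PBS_108 and PBS_110 and the DEN rats DEN_11, DEN_14 and DEN_51, and values below are given in that order.

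DEN is a nitrosamine that liver cytochromes P450, above all CYP2E1 of the cells around the central vein, turn into a reactive agent that alkylates DNA. Repeated doses kill hepatocytes, which are then replaced by division while scar matrix is laid down, and this is why the compound is used to produce cirrhosis and liver cancer in rats. A whole liver extract mixes hepatocytes with bile duct, stellate, endothelial and immune cells. In such an extract fewer cells of a type and less RNA per cell cannot be told apart.

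A level here is a normalized log2 bead intensity, and a change is the DEN 50 mean minus the PBS mean on that scale, so that 1 is a doubling. Levels at or below 6.38, the median of all values, were taken as near background, and a change from or to such a level may be understated. A change is called where p, adjusted by the Benjamini-Hochberg method, is under 0.05 in limma's moderated test over all 19339 features. It is called within 2-fold where the 95% confidence interval of its change lies between -1 and 1 and both group means are above background. The share of higher calls depended on how arrays were scaled. It was 52.9% with quantile normalization, 89.7% when arrays were set to a common median and 35.0% when they were set to the median of 6443 bright probes. The bright-probe scaling moved the median change of all features to -0.50, against -0.02 with quantile normalization and 0.04 with median scaling. Counts that hold with all 3 scalings are therefore given beside those with quantile normalization.

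The 6 arrays had raw median intensities of 106.5 to 186.9. Correlations between arrays of the same group were 0.983 to 0.991, above the 0.954 to 0.965 between the groups. The array of DEN_51 had the highest raw mean, 1103, against 449.7 for the lowest. All 7 measured hepatocyte markers were above background, with a mean level of 13.57 to 13.76 in PBS and 13.19 to 13.38 in DEN 50, without overlap, and a median change of -0.34. All 7 had a change below 0, and 2 were called lower. Ttr, the thyroid hormone carrier transthyretin, fell from 15.36, 15.21 and 15.15 to 14.67, 14.43 and 14.12, with all 3 scalings. Cps1, the first enzyme of the urea cycle, changed by -0.86 ± 0.24 but was not called with median scaling or without PBS_7, PBS_110, DEN_11 or DEN_51, at -0.76, -0.88, -0.71 and -0.91. The other 5 lay within 2-fold, with changes from -0.35 to -0.02, the last being albumin (Alb) at 15.04, 15.12 and 14.98 in PBS and 15.20, 14.99 and 14.90 in DEN 50. Cela1, an elastase listed with 11 pancreatic acinar genes, changed by -2.44, while 9 of the 11 were not above background in both groups. Over 9 neutrophil genes the mean level was 6.41 to 6.45 in PBS and 6.52 to 6.79 in DEN 50, close to background. Of the 9, 3 were above background in both groups and 1 was called higher, not with all 3 scalings. Their median change was -0.02.

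Of the 19339 features, 2108 were called (10.9%), 1115 higher (5.77%) and 993 lower (5.13%), and the count was 1405 without DEN_51. Only 116 changed by 4-fold or more, 79 higher and 37 lower. Intermediate changes, from 2-fold to under 4-fold, numbered 535, of which 324 were higher and 211 lower. The other 1457 calls were under 2-fold. With all 3 scalings 457 features were higher (2.36%) and 136 lower (0.703%). Of the intermediate calls 271 higher and 80 lower held in all 3, and of the small calls 107 higher and 22 lower. At the other end, 7855 features lay within 2-fold, 40.6% of those tested and 83.0% of the 9462 above background in both groups. In all 3 scalings that count was 2924 (15.1% of those tested), so for most genes a modest shift in one direction could not be told from the scaling.

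**Figure D1:**
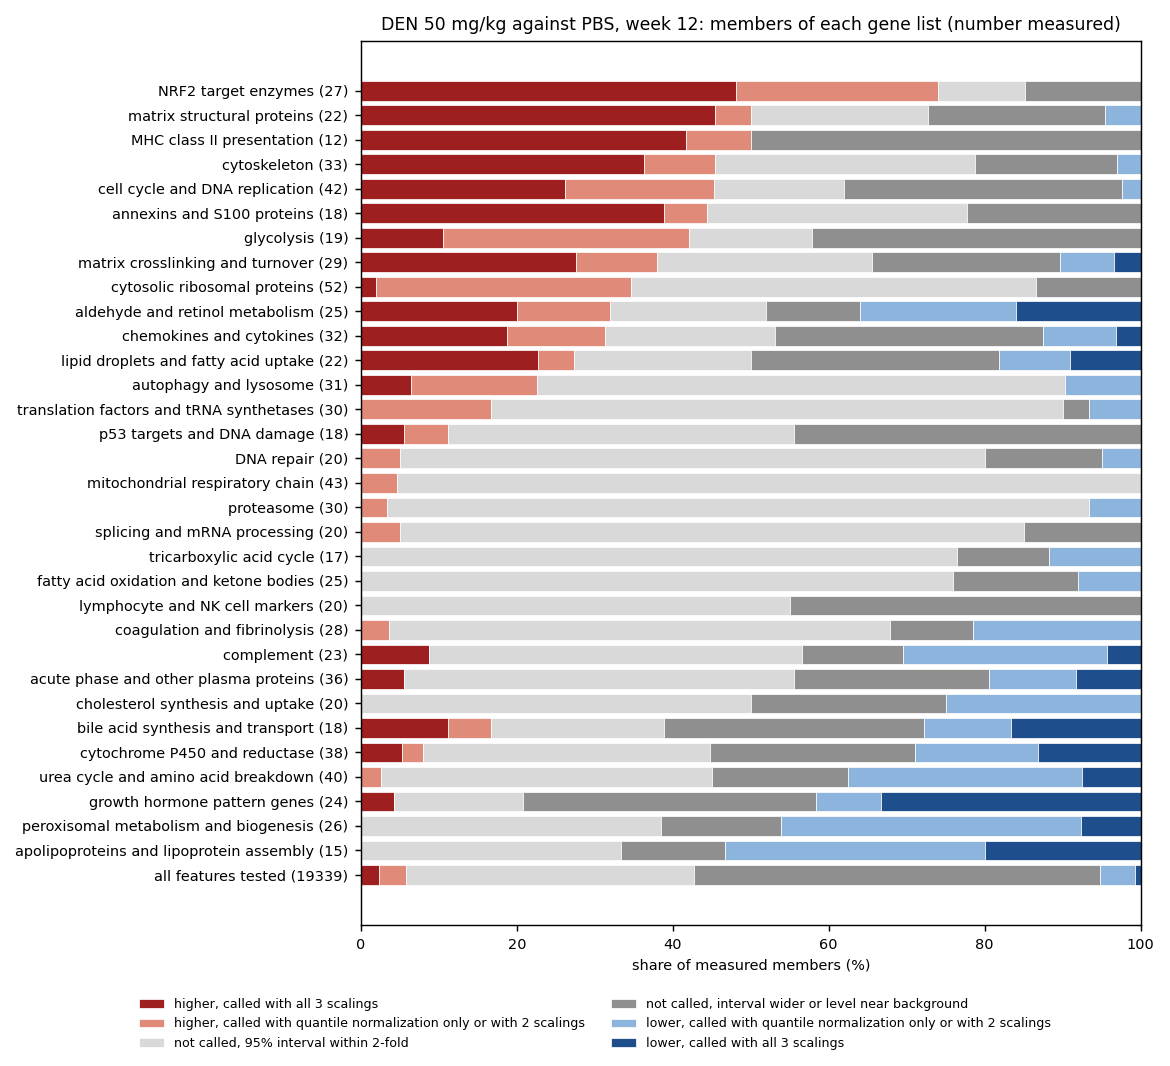
Each bar divides the measured members of a gene list (number in brackets) by their call in DEN 50 against PBS at week 12, as a share in percent, with all 19339 features at the bottom. Red shares are largest for NRF2 target enzymes (20 of 27 higher), pale grey fills most of the respiratory chain (41 of 43 not called and within 2-fold), and blue is largest for apolipoproteins (8 of 15 lower).

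The plot of single rats holds genes chosen for groups that do not overlap, so a gap between the groups is part of the choice. It shows the intermediate increases with the smallest adjusted p. Among them S100a6, a calcium-binding protein abundant in dividing and duct-like cells, read 6.51, 6.97 and 6.59 in PBS and 8.43, 8.42 and 8.75 in DEN 50 (change 1.84 ± 0.16, SE, n = 3 per group, limma adjusted p = 1.17e-07). Anxa1, a calcium-dependent membrane-binding protein with anti-inflammatory action, read 7.48, 8.05 and 7.83 against 9.61, 9.71 and 9.87 (change 1.94 ± 0.19). In both genes every DEN rat lay above every PBS rat by more than a unit. Each SE here and below rests on the spread within groups, pooled over all groups of the study and not only those compared.

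Capn2, a calcium-activated protease, went from 9.28, 9.86 and 9.72 to 11.22, 10.98 and 11.07. Tspo, a cholesterol-binding protein of the outer mitochondrial membrane, went from 8.02, 8.40 and 7.87 to 10.16, 9.92 and 10.12. Pdgfa, a ligand of the platelet-derived growth factor receptors that act on stellate cells, was already well above background in PBS at 9.92, 10.10 and 9.74 and reached 11.69, 11.54 and 11.70 (change 1.73 ± 0.15). In each of these genes the 3 DEN arrays lay close together, and the genes were chosen for groups that do not overlap.

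Rgs2, a regulator that shortens G protein signalling, rose by 1.78 ± 0.19, and Plscr1, an interferon-inducible phospholipid scramblase, by 1.83 ± 0.19. Tusc3, a subunit of the complex that attaches sugars to new proteins in the endoplasmic reticulum, rose by 2.00 ± 0.16 and B4galt6, a lactosylceramide synthase, by 1.74 ± 0.14. Dynlt1, a light chain of the dynein motor, rose by 1.66 ± 0.17, and the nucleoside diphosphate kinase Nme2 by 1.07 ± 0.11. These 6 genes were called with all 3 scalings.

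Structural proteins accounted for a further group. Of 33 measured cytoskeleton genes 15 were higher and 1 lower, 12 and 0 with all 3 scalings, with a list median of 0.51 against -0.02 over all features. Vim, the intermediate filament of mesenchymal cells, read 9.82, 9.90 and 10.04 in PBS and 11.47, 11.93 and 11.96 in DEN 50. Tubb6, a beta tubulin, moved further, from 7.13, 6.73 and 6.35 to 9.23, 9.49 and 9.79 (change 2.77 ± 0.24, limma adjusted p = 9.85e-08). The actin crosslinker Flna rose by 1.86 ± 0.25 and the actin-binding Tagln2 by 2.01 ± 0.26. Krt8, a keratin of hepatocytes themselves, rose from an already high 12.40, 12.86 and 12.44 to 13.82, 14.27 and 14.45. Actb, the actin often used as a reference, changed by 0.39 with an interval of -0.02 to 0.80 and was not called. Of 18 annexins and S100 proteins 8 were higher and none lower, 7 with all 3 scalings, with Anxa2 at 2.90 ± 0.24, S100a11 at 2.57 ± 0.33 and Anxa5 at 1.91 ± 0.31.

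**Figure D2:**
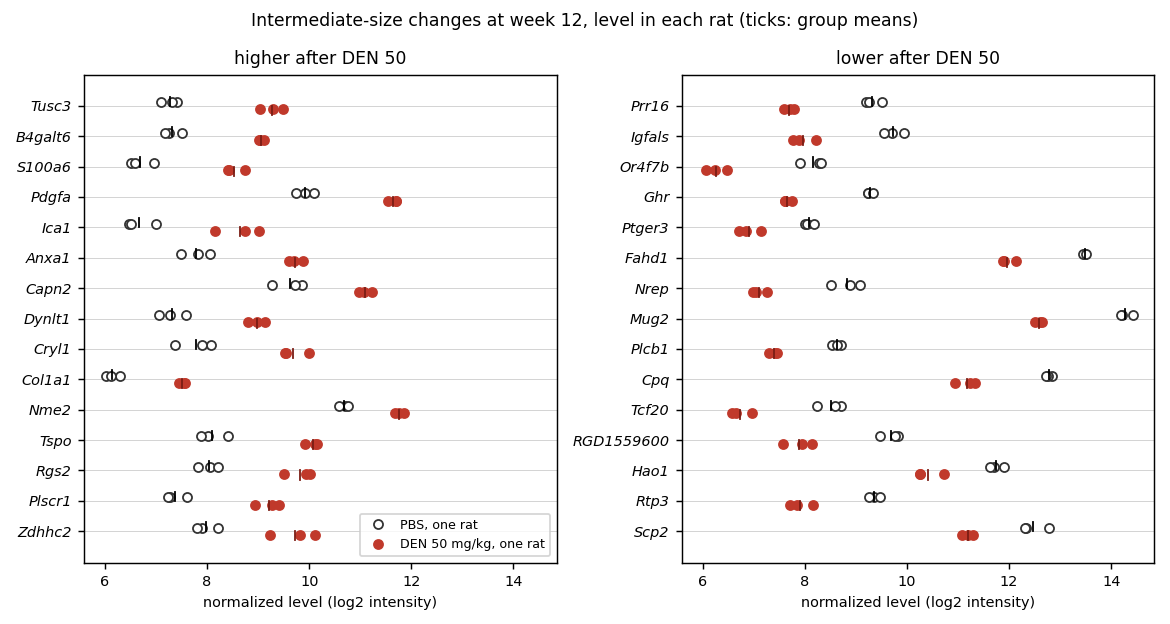
Normalized log2 level in each rat for the 15 higher and 15 lower intermediate-size genes with the smallest adjusted p, PBS as open and DEN 50 as filled circles, with short ticks at the group means. In each row the 3 filled circles lie on one side of the 3 open ones, since the genes were chosen for groups that do not overlap.

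The intermediate decreases included secreted hepatocyte proteins, receptors and peroxisomal enzymes. Igfals, the liver-made subunit that keeps insulin-like growth factors in the circulation, read 9.94, 9.70 and 9.55 in PBS and 8.22, 7.77 and 7.88 in DEN 50 (change -1.78 ± 0.14, limma adjusted p = 3.45e-08). Ghr, the growth hormone receptor upstream of Igfals, read 9.25, 9.24 and 9.34 against 7.61, 7.61 and 7.76 (change -1.62 ± 0.16). Both genes were among those chosen for groups that do not overlap.

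Mug2, a secreted inhibitor of proteases made by rodent liver, fell from 14.43, 14.20 and 14.20 to 12.61, 12.65 and 12.51. Fahd1, a mitochondrial oxaloacetate decarboxylase, fell from 13.49, 13.46 and 13.50 to 12.14, 11.87 and 11.89, and Cpq, a secreted carboxypeptidase, from 12.84, 12.77 and 12.71 to 11.33, 11.24 and 10.95. Ptger3, a prostaglandin E receptor, and Plcb1, a phospholipase C, had lower levels and changes of -1.18 ± 0.12 and -1.23 ± 0.13. The DEN levels of Ptger3, 6.71, 6.85 and 7.14, come close to background, so its change may be understated.

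Egfr, the growth factor receptor blocked by the drug erlotinib that other groups of the study received, read 8.23, 7.73 and 8.59 in PBS and 7.01, 7.15 and 6.91 in DEN 50 (change -1.16 ± 0.25, limma adjusted p = 0.00311), though it was not called with median scaling. Growth hormone is released in pulses in male rats and more evenly in females, which sets male and female levels of many liver genes. Among 24 genes with such a sex pattern or of growth hormone signalling itself, 10 were lower and 1 higher, 8 and 1 with all 3 scalings. Beyond Ghr they included Cyp4a2, Car3 and Hsd3b5. The higher one was Cyp2c12, a P450 of female rat liver, which read 11.24, 10.69 and 12.48 in the male PBS rats and 13.39, 13.39 and 14.08 in the DEN rats (change 2.15 ± 0.36). Socs2 and Cish, feedback inhibitors that the growth hormone receptor induces, were lower by under 2-fold, but not with median scaling. Cish was not called without PBS_7 or PBS_108, at -0.53 each, nor Socs2 without PBS_108, at -0.57, or DEN_51, at -0.65.

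Growth and division genes were next. Cyclin-dependent kinases and cyclins drive the cell cycle, and many late cell cycle genes carry a CCAAT box and a short element called CHR near their start. Of 42 measured cell cycle and replication genes 19 were higher and 1 lower, 11 and 0 with all 3 scalings, and 12 were higher without DEN_51. The shares were 45.2% higher and 2.38% lower, beside 5.77% and 5.13% of all features. Most of these genes are near background in PBS liver, and 18 of the 42 were above it in both groups. Cdk1, the kinase that starts mitosis, read 6.13, 6.30 and 6.23 in PBS, which is background, and 8.46, 8.63 and 9.07 in DEN 50 (change 2.50 ± 0.25, limma adjusted p = 6.15e-07). Its partner cyclin Ccnb2 went from 6.71, 6.87 and 6.67 to 8.97, 8.99 and 9.45. The spindle and cytokinesis genes Prc1 and Kif20a rose by 1.83 ± 0.27 and 1.44 ± 0.27, and Rrm2, which supplies deoxynucleotides for DNA synthesis, by 2.15 ± 0.29. Ccnd1, the cyclin of the early cycle, was well above background in PBS at 9.72, 10.83 and 10.76 and reached 12.33, 11.88 and 12.12. All of these genes were named from those that rose. In each the DEN rats lay above the PBS rats without overlap, as in 13% of all features tested.

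The promoters of Cdk1 and Ccnb2 are shown because both genes rose from background and both windows hold several copies of the 2 elements. The windows run from 250 bases before to 50 bases after the start of each gene in RefSeq (GRCr8, chr20:19265043-19265342 on the plus strand and chr8:79981609-79981908 on the minus strand). Capitals mark CCAAT or its reverse complement ATTGG, and TTTGAA or TTCGAA or their reverse complements, which stand for CHR. The motifs were searched on both strands.
Cdk1: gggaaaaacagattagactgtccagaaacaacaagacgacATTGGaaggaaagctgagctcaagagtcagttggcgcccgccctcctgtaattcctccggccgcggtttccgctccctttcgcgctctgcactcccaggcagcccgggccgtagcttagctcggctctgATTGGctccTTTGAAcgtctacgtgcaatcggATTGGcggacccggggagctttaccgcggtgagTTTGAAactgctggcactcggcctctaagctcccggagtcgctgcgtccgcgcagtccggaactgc
Ccnb2: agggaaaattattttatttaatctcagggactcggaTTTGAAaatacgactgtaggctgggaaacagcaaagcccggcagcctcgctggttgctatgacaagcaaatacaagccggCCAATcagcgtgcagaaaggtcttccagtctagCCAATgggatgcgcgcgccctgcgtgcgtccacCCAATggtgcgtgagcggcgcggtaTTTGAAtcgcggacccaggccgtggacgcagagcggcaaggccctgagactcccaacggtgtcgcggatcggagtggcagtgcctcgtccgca
Each window holds 3 CCAAT and 2 CHR matches. Among 27457 rat promoters of this length 37.74% hold a CCAAT match and 19.52% a CHR match, and 11.45% hold at least 2 CCAAT. Of the 30 measured cell cycle genes with a promoter in the table these shares are 73.33%, 56.67% and 60%. Of the 13 among them that rose the shares with a CCAAT and with a CHR match are 84.62% and 53.85%. A match is a description of letters and not a bound site.

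Of 18 targets of p53, which answers DNA damage, 8 lay within 2-fold, or 61.5% of those above background. Higher were 2, 1 with all 3 scalings, and the count was 1 without DEN_51 and 4 without PBS_108. They were Mdm2, the ligase that limits p53, at 8.76, 8.57 and 8.54 in PBS and 10.09, 9.33 and 9.77 in DEN 50, and Ccng1, at 0.94 ± 0.23, which was not called with bright-probe scaling or without DEN_51, at 0.85 and 0.77. Cdkn1a, the cell cycle inhibitor most often read as a p53 target, stayed near background in PBS at 6.21, 6.04 and 6.34 and was not called at 0.37 ± 0.14. Of 20 DNA repair genes 15 lay within 2-fold, which is 83.3% of those above background against 83.0% for all features. Of 24 apoptosis regulators 16 lay within 2-fold, or 84.2% of those above background. Higher was 1 (4.17%) and lower were 2 (8.33%), 1 and 0 with all 3 scalings, beside 5.77% and 5.13% of all features. With single arrays left out 0 to 1 were lower. The higher one was Bak1, which opens the outer mitochondrial membrane, from 7.88, 7.43 and 8.24 to 9.29, 9.34 and 9.44.

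NRF2 is the transcription factor that answers electrophiles and oxidants by inducing detoxifying and glutathione genes through antioxidant response elements (ARE). Of 27 measured target enzymes 20 were higher and none lower, 13 with all 3 scalings, and the list median was 1.09. The placental glutathione transferase Gstp1 headed the list, from 7.36, 7.55 and 7.19 to 13.91, 14.74 and 14.64 (change 7.06 ± 0.31). Below that well-known marker lay a tier of intermediate changes in genes that PBS livers already express. The 2 subunits of the enzyme that limits glutathione synthesis both rose, the catalytic Gclc from 12.38, 11.71 and 11.47 to 12.91, 13.43 and 13.67 and the regulatory Gclm from 12.92, 12.47 and 12.80 to 13.63, 13.90 and 14.41. The thioredoxin reductase Txnrd1 rose from 9.75, 9.91 and 9.78 to 10.88, 11.55 and 11.52. NADPH, which both systems consume, is supplied by enzymes of which Taldo1 rose by 1.11 ± 0.21 and Me1 by 1.16 ± 0.23. Srxn1 and Slc7a11, also on the list, stayed near background in both groups.

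The promoters of Gstp1 and Gclm are shown because these genes stand at the top and in the middle of the list and each window holds 1 ARE match. The windows are RefSeq sequence of GRCr8, chr1:210769656-210769955 on the minus strand and chr2:213031885-213032184 on the plus strand. Capitals mark TGAC followed by any 3 bases and GC, or the reverse complement, searched on both strands.
Gstp1: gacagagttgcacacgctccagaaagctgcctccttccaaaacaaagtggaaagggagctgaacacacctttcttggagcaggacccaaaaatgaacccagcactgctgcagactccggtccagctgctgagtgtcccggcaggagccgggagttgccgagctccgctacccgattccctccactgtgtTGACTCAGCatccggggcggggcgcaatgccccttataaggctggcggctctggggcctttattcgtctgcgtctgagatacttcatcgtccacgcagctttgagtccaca
Gclm: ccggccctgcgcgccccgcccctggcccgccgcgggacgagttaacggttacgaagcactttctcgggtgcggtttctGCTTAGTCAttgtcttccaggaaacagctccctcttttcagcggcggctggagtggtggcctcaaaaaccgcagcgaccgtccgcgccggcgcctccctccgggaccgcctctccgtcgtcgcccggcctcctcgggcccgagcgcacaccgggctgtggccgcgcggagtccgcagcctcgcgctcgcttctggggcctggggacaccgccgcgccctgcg
The match begins 61 bases before the start in Gstp1 and 172 bases before it in Gclm. An ARE match was found in 12.17% of all promoters, in 28.57% of the 21 measured NRF2 targets with a promoter in the table and in 5 of the 15 that rose.

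Peroxisomes break down very long and branched fatty acids and handle hydrogen peroxide. Of 26 peroxisomal genes 12 were lower and none higher, with a list median of -0.55, but only Hao2 and Hao1 held with all 3 scalings and the median was -0.06 with median scaling. Hao1, a glycolate oxidase, fell from 11.90, 11.70 and 11.63 to 10.72, 10.26 and 10.25. Scp2, a sterol carrier and thiolase, fell from 12.32, 12.32 and 12.78 to 11.29, 11.08 and 11.19, and Hacl1, which shortens branched fatty acids, from 13.10, 13.41 and 12.72 to 11.79, 10.92 and 10.73, neither of them with median scaling. The thiolase Acaa1a and the transporter Abcd3 of the same organelle lay within 2-fold with all 3 scalings. Abcd3 read 12.17, 12.46 and 12.50 in PBS and 12.32, 12.05 and 11.90 in DEN 50.

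Of 25 genes of fatty acid oxidation and ketone body synthesis 19 lay within 2-fold, or 79.2% of those above background. None was higher and 2 were lower, or 8% against 5.13% of all features. They were the mitochondrial dehydrogenase Hadh, at -1.06, and Crot, which acts in peroxisomes, at -1.65, neither with median scaling.

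Amino acid breakdown had 15 of 40 genes lower, 3 with all 3 scalings, and 9 lower without DEN_51. Oat, which converts ornithine in cells around the central vein, fell from 12.48, 11.94 and 12.44 to 9.94, 9.54 and 9.89 (change -2.50 ± 0.30, limma adjusted p = 7.85e-06). Gnmt, which uses up methyl groups, read 13.42, 14.36 and 13.37 in PBS and 13.10, 11.50 and 11.28 in DEN 50, so that DEN_11 stood apart from the other DEN rats. Kynu of tryptophan breakdown and Hal of histidine breakdown fell by 1.47 and 1.25, though not with median scaling. Among urea cycle enzymes Arg1 read 14.31, 14.23 and 13.92 against 14.13, 14.39 and 14.20 and was within 2-fold with all 3 scalings, Otc was within 2-fold at -0.52, and Ass1 was not called at -0.48 ± 0.31. Otc was called lower with bright-probe scaling and with the stricter filter on dim probes, and both were called lower in a fit of only the arrays compared.

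Apolipoproteins carry lipid out of the liver. Of 15 genes of lipoprotein assembly 8 were lower and none higher, 3 with all 3 scalings, and 5 were lower without PBS_108 or without DEN_14. Apon fell from 12.61, 11.78 and 12.69 to 10.76, 10.42 and 10.34, and Apom, which carries sphingosine-1-phosphate, from 12.02, 11.43 and 11.84 to 11.03, 9.73 and 9.98. Apoc1 fell by 1.03 from levels as high as 15.15. Apoe was within 2-fold at 15.45, 15.24 and 15.23 against 15.34, 15.45 and 15.38. Levels of this height lie near the top of the intensity scale, where changes are compressed and may be missed.

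Genes that take up and store fat moved the other way in part. Of 22 genes of lipid droplets and fatty acid uptake 6 were higher and 4 lower, 5 and 2 with all 3 scalings. Fabp4, a fatty acid carrier of fat cells, macrophages and capillaries, went from 6.61, 7.61 and 7.30 to 10.22, 10.59 and 10.79. The fatty acid transporter Cd36 went from 9.11, 8.68 and 8.96 to 10.43, 11.32 and 11.40, and Lpl, the lipase that releases fatty acids from lipoproteins and that adult hepatocytes express little, from 7.57, 8.80 and 8.23 to 9.87, 10.14 and 10.14. The droplet coat protein Plin3 rose by 1.57 ± 0.17. On the lower side G0s2, an inhibitor of the droplet lipase, and Lipc, the hepatic lipase, were called, Lipc not with median scaling.

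Of 19 glycolytic genes 8 were higher and none lower, 2 with all 3 scalings, and 5 were higher without PBS_108, DEN_11 or DEN_14. Aldoa, the aldolase of muscle and other extrahepatic tissue, went from 8.60, 8.71 and 8.52 to 10.08, 10.24 and 10.22 (change 1.57 ± 0.20), and Ldhb, the heart-type lactate dehydrogenase subunit, rose from 7.07, 7.48 and 7.56 to 8.21, 8.30 and 8.60. Ldha, the other subunit, was not called at -0.59 ± 0.23, but was called lower in a fit of only the arrays compared. Of 17 genes of glucose output and glycogen 10 lay within 2-fold, or 66.7% of those above background against 83.0% for all features. Pck1 read 13.95, 14.62 and 14.73 against 14.01, 13.67 and 14.31 and was not resolved.

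Of 18 genes of bile acid synthesis and transport 5 were lower and 3 higher, 3 and 2 with all 3 scalings, beside 5.13% lower and 5.77% higher of all features. The list median was -0.36, and 0.02 with median scaling. The importer of the blood side, Slc10a1, fell from 13.87, 13.67 and 13.69 to 12.57, 12.26 and 12.21, and Baat, which conjugates bile acids, from 13.06, 12.55 and 12.83 to 11.55, 11.35 and 11.25. Cyp7b1 of the alternative synthesis route fell by 2.23 ± 0.36, and the bile acid receptor Nr1h4 by 1.11 on the log2 scale, the latter not with median scaling. The multidrug exporter Abcb1b was higher, from 6.14, 7.38 and 7.66 to 10.59, 11.16 and 11.85. Of 38 cytochromes P450 and reductases 11 were lower and 3 higher, 5 and 2 with all 3 scalings. Cyp2e1, the enzyme that activates DEN, was within 2-fold at 15.21, 15.15 and 15.31 against 15.13, 14.93 and 15.05, again near the top of the scale. Cyp1a1 and the glucuronosyl transferase Ugt1a6, both inducible through the aryl hydrocarbon receptor, rose by 2.21 ± 0.41 and 2.12 ± 0.28, whereas Cyp1a2, a target of the same receptor, fell by 2.19.

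**Figure D3:**
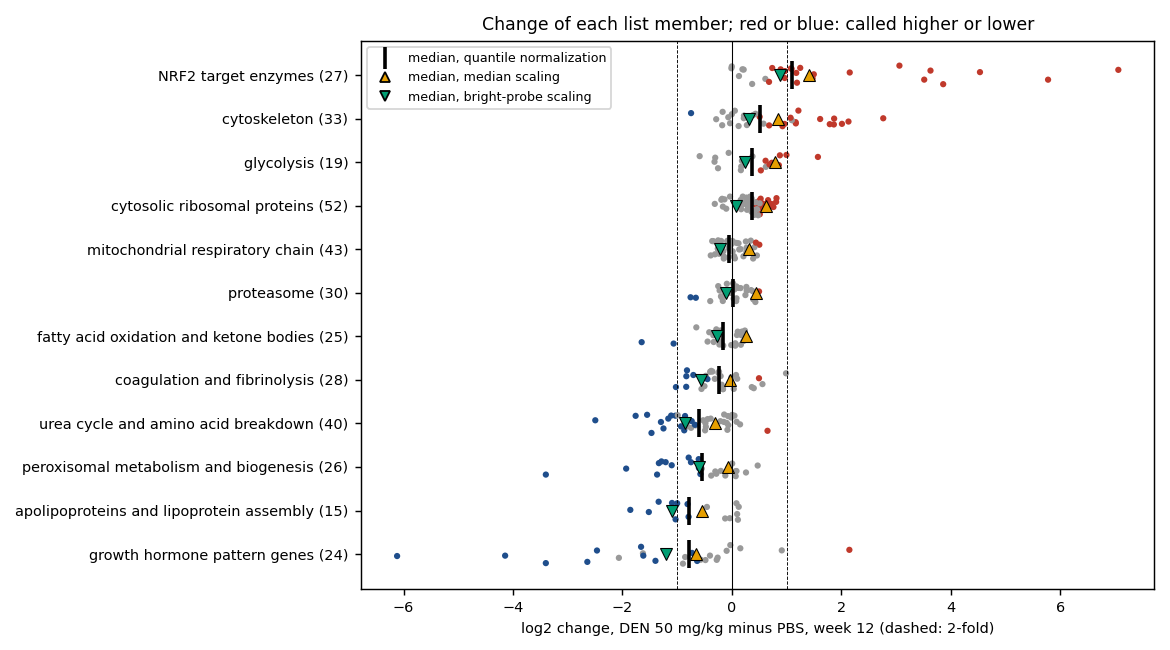
Log2 change of each measured member of 12 gene lists, DEN 50 minus PBS at week 12, with members called higher in red, called lower in blue and others in grey, and the list medians under 3 scalings as symbols. Respiratory chain and proteasome members lie between the dashed 2-fold lines, while NRF2 targets reach 7.06 and apolipoprotein and growth hormone pattern genes lie mostly below 0.

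Scar matrix is made by activated stellate cells and portal fibroblasts and is shaped by proteases, their inhibitors and crosslinking enzymes. Of 22 structural matrix genes 11 were higher, 10 with all 3 scalings. Col1a1, the main fibril collagen of scar, read 6.02, 6.30 and 6.12 in PBS, at background, and 7.56, 7.55 and 7.45 in DEN 50. The basement membrane collagen Col4a1 went from 7.12, 7.94 and 7.56 to 9.35, 9.24 and 9.39, and Fbln1, a glycoprotein of elastic fibres, from 6.94, 7.02 and 7.03 to 9.48, 9.39 and 9.50. In these genes the 3 DEN rats were close together and above all PBS rats, and 13% of all features were higher without overlap.

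Of 29 genes of matrix crosslinking and turnover 11 were higher and 3 lower, 8 and 1 with all 3 scalings, and 1 was lower without PBS_108 or without DEN_11. Mmp12, the elastase of macrophages, went from 6.28, 6.62 and 6.52 to 9.65, 9.56 and 9.51 (change 3.10 ± 0.25). Timp1, an inhibitor of such enzymes, rose by 1.23 ± 0.21, the procollagen protease Adamts2 by 1.81 ± 0.20 and the crosslinking enzyme Loxl1 from 6.49, 6.88 and 6.32 to 8.18, 8.04 and 7.99. The related crosslinker Lox was lower, from 10.94, 11.37 and 10.89 to 8.82, 9.03 and 9.25. Ccn2, a matricellular target of TGF-beta, went from 8.77, 9.51 and 8.83 to 13.06, 11.76 and 12.18.

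Immune genes changed unevenly. Of 12 genes of antigen presentation by MHC class II 6 were higher and none lower, 5 with all 3 scalings. The invariant chain Cd74 read 9.42, 8.65 and 9.77 in PBS and 10.95, 11.04 and 10.60 in DEN 50, and RT1-DMb, which loads the peptides, 10.23, 9.02 and 10.87 against 11.92, 11.90 and 11.90. PBS_108 was lowest in both. Of 14 macrophage markers 4 were higher and 2 lower, 1 lower without any array in turn other than that of PBS_108, and 2 were higher without PBS_108, whose mean over that list, 8.18, lay below the 8.57 and 8.80 of the other PBS rats. With all 3 scalings 3 macrophage markers were higher and 1 lower, and the list median was 0.42, or 0.25 with bright-probe scaling. Against that direction Cd14, the endotoxin co-receptor, fell from 10.65, 11.03 and 10.53 to 9.02, 8.95 and 8.52. None of 20 lymphocyte and natural killer cell markers was called with limma, beside 10.9% of all features. An unadjusted p under 0.05 was found for 5 of the 20 and for 4217 of all 19339 features. Only 11 of the 20 were above background in both groups, and these 11 lay within 2-fold. The other 9 were not resolved. Without PBS_110 1 of the 20 markers was higher and 1 lower. The T cell receptor subunits Cd3d, Cd3e and Cd3g were near background in both groups.

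Of 32 chemokines and cytokines 10 were higher and 4 lower, 6 and 1 with all 3 scalings. Cxcl16 went from 7.56, 7.62 and 8.31 to 9.43, 9.70 and 9.60, and Ccl19, which attracts dendritic cells and naive lymphocytes, from 7.19, 7.55 and 7.03 to 9.00, 8.47 and 8.68. The neutrophil attractant Cxcl1 read 10.46, 8.55 and 8.72 in the DEN rats and was not called without DEN_11, at 1.35. Cxcl12, made by sinusoidal and stromal cells, fell from 12.11, 12.07 and 12.32 to 10.84, 10.59 and 10.66, and the alarmin Il33 from 12.27, 10.45 and 11.69 to 10.35, 9.56 and 9.85. Neither was called with median scaling.

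Bile duct and progenitor markers had 6 of 13 members higher and 1 lower, 4 and 1 with all 3 scalings. Epcam, Krt19 and Cd24 were all higher with all 3 scalings, with Epcam at 7.49, 8.57 and 8.47 in PBS and 10.23, 10.67 and 11.22 in DEN 50. Sctr, the secretin receptor of bile ducts, was lower, from 8.83, 8.71 and 8.50 to 7.16, 6.85 and 6.87. The mean level over the whole list was 7.15 to 7.34 in PBS and 7.88 to 8.25 in DEN 50. Over 14 stellate and myofibroblast markers it was 7.01 to 7.37 and 7.54 to 7.71. Of the 14, 3 were higher, 2 with all 3 scalings, and none lower, while 6 lay within 2-fold. The median of these 14 was 0.20, and -0.10 with bright-probe scaling. The part that shifts in cell types play in the changes above was not tested.

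Basic cell functions lay mostly within 2-fold, as did 83.0% of all features above background in both groups. All 43 measured genes of the mitochondrial respiratory chain lay within 2-fold, 29 of them with all 3 scalings, with a list median of -0.04 and members between -0.39 and 0.50. Called higher were 2 of the 43 (4.65%), neither with all 3 scalings, and none was lower. The ATP synthase subunit Atp5f1b read 14.38, 14.23 and 14.10 in PBS and 14.36, 14.41 and 14.75 in DEN 50, and the oxidase subunit Cox4i1 12.86, 12.95 and 13.01 against 13.16, 12.94 and 12.88. The arrays overlapped in both genes. Averaged over the 43 genes the level was 11.44 to 11.53 in PBS and 11.42 to 11.55 in DEN 50.

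Of 30 proteasome genes 28 lay within 2-fold, 12 with all 3 scalings. Called were 1 higher (3.33%) and 2 lower (6.67%), none with all 3 scalings. Psma6 of the core particle read 12.42, 12.58 and 12.38 against 12.33, 12.76 and 12.54. Of 30 translation factors and tRNA synthetases 27 lay within 2-fold, of 20 splicing genes 17, and of 17 genes of the tricarboxylic acid cycle 14. Called higher were 5 translation genes (16.7%) and 1 splicing gene (5%), beside 5.77% of all features. Called lower were 2 translation genes (6.67%) and 2 of the tricarboxylic acid cycle (11.8%), beside 5.13%. None of these calls held with all 3 scalings, and 2 to 3 translation genes were higher with single arrays left out. The elongation factor Eef1a1 changed by 0.15, with an interval of -0.08 to 0.38. The endoplasmic reticulum chaperone Hspa5, which rises when folding fails, read 13.85, 14.30 and 14.07 against 13.95, 14.09 and 14.11 and was within 2-fold with all 3 scalings, as was the chaperone Calr. Of 26 genes of these chaperones and of the unfolded protein response 18 lay within 2-fold, or 75% of those above background. Lower were 4 (15.4%) and higher 1 (3.85%), none with all 3 scalings, beside 5.13% and 5.77% of all features. Without DEN_51 1 was lower. Their mean level was 10.23 to 10.36 in PBS and 10.12 to 10.17 in DEN 50, without overlap. The list median was -0.13, and 0.11 with median scaling. Of 31 genes of autophagy and lysosomes 27 lay within 2-fold, although 7 were higher and 3 lower by smaller steps, and 2 to 4 were higher without any array in turn other than that of PBS_108.

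Ribosomal protein genes were called by small steps. Of 52 measured 18 were higher and none lower, with a list median of 0.37, but only Rpl13 held with all 3 scalings and the median was 0.08 with bright-probe scaling. Rps3 read 11.99, 11.98 and 11.92 in PBS and 12.78, 12.70 and 12.83 in DEN 50, and Rpl13 10.54, 10.62 and 10.56 against 11.24, 11.48 and 11.45. The mean over the 52 genes was 11.62 to 11.69 in PBS and 11.94 to 12.05 in DEN 50, without overlap.

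The hepatocyte makes most plasma proteins. Of 28 coagulation genes 20 lay within 2-fold, or 71.4% of those above background against 83.0% for all features. Lower were 6, none with all 3 scalings, and the count was 2 without PBS_7 and 3 without DEN_51. Prothrombin (F2) read 14.77, 14.79 and 14.85 against 14.69, 14.77 and 14.92. Transferrin (Tf), haptoglobin (Hp) and the fibrinogen chain Fgg changed by -0.05, 0.14 and -0.20, all within 2-fold at levels near the top of the scale, though F2 and Fgg were called lower with bright-probe scaling, at -0.62 and -0.90. Of 32 hepatocyte transcription factors 17 lay within 2-fold, or 65.4% of those above background. Of the 32, 5 were lower and 1 higher, none and 1 with all 3 scalings. The counts were 3 lower without PBS_110 and 2 higher without PBS_108. Hnf4a, a master regulator of hepatocyte genes, was not called and was within 2-fold at 7.10, 6.83 and 6.83 against 6.74, 6.55 and 6.46. Every DEN rat lay below every PBS rat, as in 13.2% of all features. These levels of Hnf4a are close to background, so the change may be understated. Cebpa fell by 0.79 on the log2 scale, though not with median scaling. The higher one was Nr1i3, the xenobiotic receptor CAR, from 8.49, 8.65 and 9.42 to 9.99, 10.12 and 10.42. None of 13 circadian clock genes was called with limma, beside 10.9% of all features, and 1 had an unadjusted p under 0.05. Only 9 of the 13 were above background in both groups and 3 lay within 2-fold. The other 10 were neither called nor within 2-fold, so most of this list was not resolved. Afp, the fetal albumin used as a tumour marker, read 9.64, 9.35 and 9.28 against 9.38, 9.26 and 9.11 and was within 2-fold with all 3 scalings.

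The rats differed from each other in some strongly expressed genes. The median standard deviation over named genes was 0.151 in PBS and 0.179 in DEN 50. Of 3579 named genes with a DEN 50 mean above 8, 18 had a standard deviation above 1, and of 3532 such genes in PBS 30 did. The male P450 Cyp2c11 read 14.81, 14.69 and 14.60 in PBS and 12.07, 11.08 and 8.53 in DEN 50. Mup4l3, of the male urinary protein family, read 14.56, 14.48 and 14.58 against 9.62, 7.93 and 6.69, and Dhrs7l1, a short-chain dehydrogenase, 13.16, 13.61 and 13.72 against 11.07, 10.44 and 7.68. DEN_51 was lowest in all 3 genes. Mup4 and Mup5 of the same family read 11.85 and 13.17 in DEN_51 and were not called, and probes of such near-identical genes may share targets. Ugt2b7, a glucuronosyl transferase, was high in DEN_14 alone, at 8.23, 13.75 and 8.18, and Cyp2b15 in DEN_11 alone, at 12.59, 9.09 and 9.23.

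PBS rats differed among themselves as well. Noct, a rhythmic deadenylase, read 9.62, 6.56 and 10.78, and Igfbp1, which insulin suppresses, 7.97, 12.22 and 10.53. G6pc1 of glucose release read 9.74, 12.59 and 12.90. Cyp7a1, which starts the main route from cholesterol to bile acids, read 11.55, 8.40 and 11.17 in PBS and 11.92, 11.94 and 12.91 in DEN 50, and its call at 1.88 was lost without PBS_108, at 0.90, and also without any DEN rat in turn, at 1.56 to 2.05. It was lost as well with the authors' deposited table, without background correction, with both other scalings, in a fit of only the arrays compared and with trended robust moderation, at 1.73 to 2.28. Mrpl17, a mitochondrial ribosomal protein, split in PBS at 7.60, 10.15 and 7.24, and RT1-A2, a class I antigen, at 11.29, 12.23 and 6.20, while all 3 DEN rats were near background for it. The haemoglobin chain Hbb read 12.46, 14.09 and 12.93 against 11.96, 11.07 and 10.86 and was not called without PBS_108, DEN_14 or DEN_51, at -1.40, -1.75 and -1.64, nor with trended robust moderation.

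**Figure D4:**
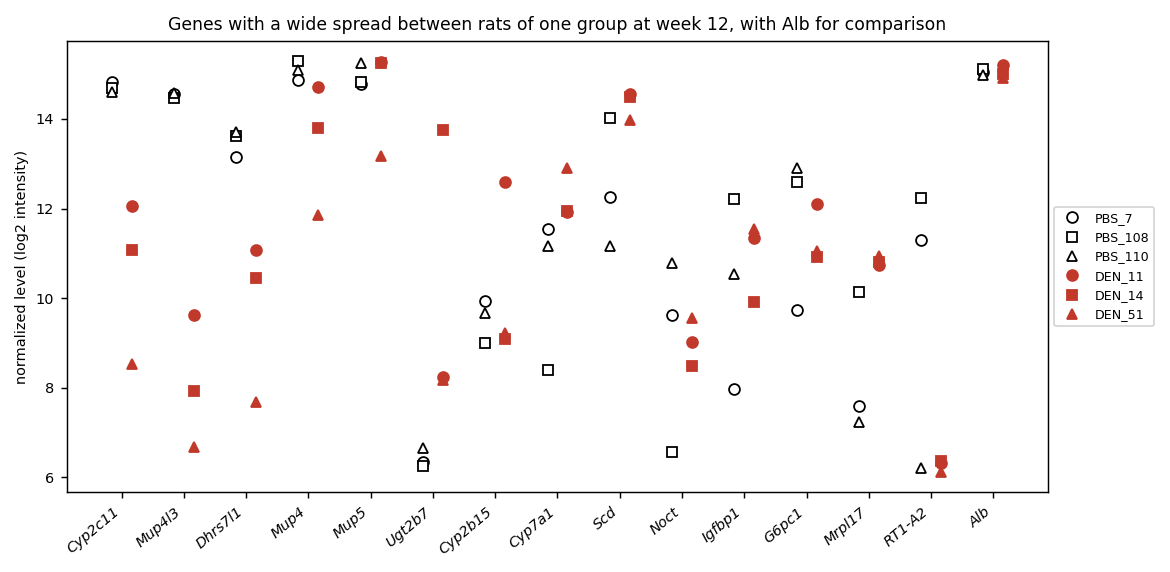
Normalized log2 level in each of the 6 rats for 14 genes with a wide spread within a group, chosen after their values were seen, and for Alb. DEN_51 is lowest for Cyp2c11, Mup4l3, Dhrs7l1, Mup4 and Mup5, and Ugt2b7 reaches 13.75 in DEN_14 alone, while Alb lies between 14.90 and 15.20.

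Week 18 gave a comparison in other animals, 3 rats given DEN at 50 mg/kg and vehicle injections from week 13 against 3 PBS rats, with no array shared. There 3528 features were called (18.2%), 1839 higher (9.51%) and 1689 lower (8.73%), and 1443 of the week 12 calls were called again in the same direction. That is 68.5% of the week 12 calls and 40.9% of those of week 18. The share called again grew with size. It was 58.9% for calls under 2-fold, 88.6% for intermediate calls and 95.7% for calls of 4-fold or more. Larger changes pass the same threshold more easily, so a rise of this share with size says little about repeatability. Both comparisons also used the same pooled spread of each feature, so their calls are not fully independent. In opposite directions 6 features were called, Scd among them. Of the 7156 features within 2-fold and not called at week 12, 1598 were called at week 18.

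**Figure D5:**
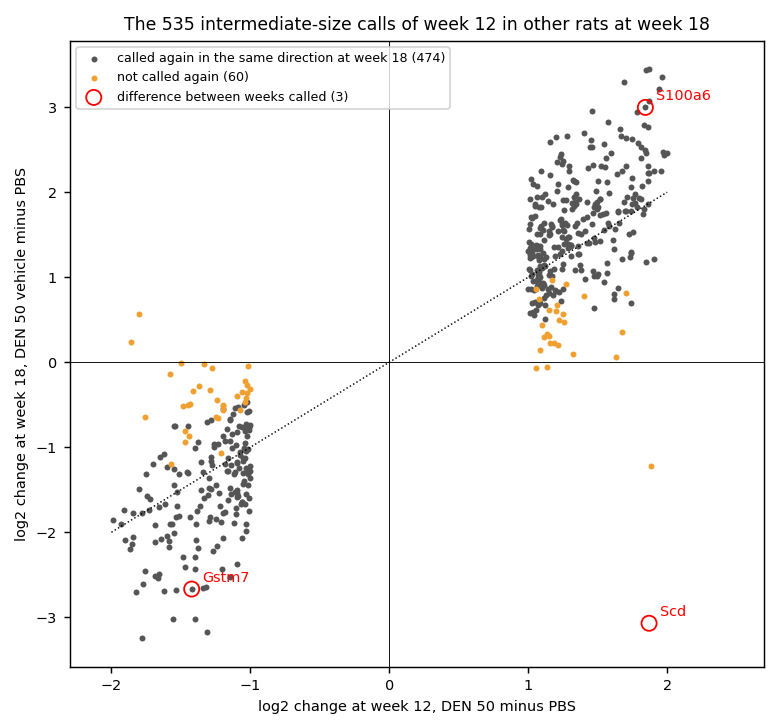
Log2 change at week 12 (x axis) and at week 18 (y axis) of the 535 intermediate-size calls of week 12, each point a feature and the dotted line marking equal change. Grey points (474) were called again in the same direction, orange points (60) were not, and red circles mark S100a6, Gstm7 and Scd, whose change differed between the weeks.

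The size of change at week 18 differed from gene to gene and from list to list. Capn2 changed by 1.47 at week 12 and 1.46 at week 18, Ghr by -1.62 and -1.66, Cdk1 by 2.50 and 2.67, and Gstp1 by 7.06 and 7.02. List medians further from 0 at week 18 were those of the growth hormone pattern, at -0.79 and then -2.10, MHC class II presentation, at 0.74 and 1.52, cholesterol synthesis, at -0.38 and -1.03, and bile duct and progenitor markers, at 0.47 and 1.49. The differences between these medians were not tested.

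A test of the difference between the weeks called 45 features (0.233%), 3 with median scaling and 7 with bright-probe scaling, and single arrays moved the count too. It was 15, 17 and 27 without PBS_110, DEN_11 or DEN_14, and 16, 22 and 19 without PBS_8, PBS_9 or PBS_18 of week 18. It was 75 and 26 without the vehicle rats DEN_59 or DEN_69. Some of the 45 were genes of fat synthesis that lay within 2-fold at week 12 and were lower at week 18. Acly, which makes cytosolic acetyl-CoA, changed by 0.01 ± 0.23 and then by -2.15 ± 0.23 (limma adjusted p of the difference 0.00704). The desaturases Fads1 and Fads2 changed by -0.10 and -0.14 at week 12 and by -2.07 and -2.14 at week 18, and the pyruvate kinase Pklr by -0.25 and then -3.10. Scd, which makes monounsaturated fatty acids, read 12.25, 14.01 and 11.17 in PBS and 14.56, 14.49 and 13.98 in DEN 50 at week 12, a change of 1.87 ± 0.48 that was not called without PBS_7, at 1.76, or without PBS_110, at 1.22. It was not called with bright-probe scaling or with trended robust moderation, and at week 18 it changed by -3.07 ± 0.48. Larger at week 18 in the same direction were S100a6, Cyp2c12, at 4.60, and the glutathione transferase Gstm7, at -1.42 and then -2.67. Of these 8 named differences 3 were called with median scaling, those of Acly, Pklr and Scd, and 4 with bright-probe scaling, the same 3 and Fads1.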

How the data were processed

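RNA from 21 rat livers, 7 groups of 3, was measured on Illumina bead arrays of 22523 probes. The authors deposited raw intensity values and a normalized intensity table, with the method of normalization not given in the sources used here. In the deposited normalized table array medians were 135.5 to 136.8. Raw intensities were background-corrected (normexp, offset 50), quantile-normalized and taken to log2 with limma 3.58.1 in R 4.3.3, and summaries used Python 3.11.15. Probes above the 40th percentile on at least 3 arrays were tested, with the brightest probe per gene. Of 13793 probes with 1 symbol, 13752 matched RefSeq by Entrez ID. Probes of near-identical genes (Gst, Mup, Cyp and RT1 families) may share targets.

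All 21 arrays were fitted by group (14 residual degrees of freedom), with Benjamini-Hochberg adjustment over 19339 features and empirical Bayes moderation. P-values and SE values rest on the spread between rats within groups, pooled over all groups fitted, and 3 arrays per group limit precision. They need not match the spread of the rats compared. Scd had an SE of 0.48 at both weeks, while its standard deviations at week 12 were 1.43 in PBS and 0.32 in DEN 50. On simulated data of this comparison (19339 features, 50 genes per size), 26%, 84%, 96% and 100% of log2 changes of 0.5, 1, 1.5 and 2 were called, with 4 false calls. Changed genes were drawn from those above background, with independent normal noise and no differences in array scaling. These rates therefore do not cover genes near background or the effect of the scaling.

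The groups, genes and 61 gene lists were chosen with earlier results of these data known. Named genes were the 15 higher and 15 lower intermediate calls with the smallest adjusted p and groups that do not overlap. For each list they were up to 4 called members with the largest change, and up to 4 of the highest level within 2-fold. Fixed genes were Cdk1, Ccnb2, Col1a1, Egfr, Cyp2e1, Alb, Cdkn1a, Gstp1, Hnf4a and Actb, with 3 more not described here. Chosen after their values were seen were Afp, Apoc1, Ass1, Baat, Car3, Ccl19, Ccnd1, Cd3d, Cd3e, Cd3g, Cebpa, Cox4i1, Cxcl12, Cyp2b15, Cyp2c12, Fads2, Flna, G6pc1, Gclc, Gclm, Gstm7, Hal, Hsd3b5, Igfbp1, Kif20a, Krt8, Ldha, Lipc, Lpl, Mrpl17, Mup4, Mup4l3, Mup5, Noct, Pck1, Plin3, Prc1, RT1-A2, Slc7a11, Socs2, Srxn1, Timp1, Txnrd1 and Ugt2b7. Alternatives were the deposited table, no background correction, 2 other scalings, other filters, only the arrays compared, trended robust moderation, the mean of a gene's probes and leaving out each array.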

Additional observations from a re-analysis of the deposited data

Results flagged for a closer look

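The test of the difference between the week 18 and week 12 changes of DEN 50 against PBS called 45 features with limma, at an adjusted p under 0.05, and 3 with median scaling or 7 with bright-probe scaling. For the genes named here the difference is the week 18 change minus the week 12 change, from 3 rats per group at each week. Scd differed by -4.94 ± 0.67 (SE, limma adjusted p = 0.00346), with the reversed direction described above. Pklr differed by -2.85 ± 0.48, Acly by -2.16 ± 0.33, Fads2 by -2.002 ± 0.36 and Fads1 by -1.98 ± 0.33, all from changes that were not called at week 12. Gstm7 differed by -1.25 ± 0.26, S100a6 by 1.15 ± 0.23 and Cyp2c12 by 2.45 ± 0.51, each from a call of the same direction at week 12, and their adjusted p-values were 0.0409, 0.0401 and 0.0438. None of these 3, nor Fads2, was called with median or bright-probe scaling, while Fads1 was called with bright-probe but not with median scaling. Scd, Pklr, Acly and Fads1 were called without each array in turn. The vehicle injections and the longer DEN course both separate the week 18 rats from those of week 12 and cannot be told apart.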

How the results depend on the processing

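With median scaling 1377 features were called at week 12, 928 of them again at week 18, and 3 by the difference between weeks, and with bright-probe scaling the counts were 1312, 849 and 7. A fit of only the arrays compared called 85 differences between weeks. Under the other alternatives these counts, the intermediate calls and the features within 2-fold stayed within 1.5 times of the values given, apart from single arrays left out. Leaving out each array in turn gave 1405 to 1757 calls, 451 to 534 intermediate calls, 7494 to 7687 features within 2-fold, 1048 to 1546 called again and 15 to 75 differences between weeks. No named gene changed direction with a call. Of 122 counts of list members called, 57 moved by over 1.5 times with median scaling, 36 with bright-probe scaling and 9 with the authors' normalized table. Signal near background limits the cell cycle, lymphocyte and mast cell lists, and signal near the top of the scale the plasma proteins. The chip as a random block was not run, since no chip is named in the sources used here. No paired analysis was possible because the groups share no rat numbers.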
